A study of Mus musculus with 24 samples.

Results

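The G2/M and mitosis genes described here are 40 genes whose products carry a cell from the end of DNA replication through chromosome segregation and cytokinesis. They were found by gene symbol in a table of 45318 Ensembl gene identifiers, and all 40 were present and passed the filter on low counts. RNA was sequenced in 24 libraries of Lys-GFP-ER-HoxA9 cells, a C57Bl/6 mouse myeloid progenitor line with a lysozyme-GFP reporter and HoxA9 fused to the estrogen receptor, and estradiol in the medium holds the fusion protein active, which blocks maturation. Growth medium held RPMI1640, 10% FBS, Stem Cell Factor and 0.5 uM beta-estradiol. The R07 arm had 4 libraries, 1 each at 12, 36, 72 and 120 h of a treatment known only by its code name. The labels give the same culture text for these libraries as for the others, so whether estradiol was present with R07 is not known here. The withdrawal arm had 20 libraries, 2 each at 4, 8, 12, 24, 36, 48, 72, 96 and 120 h out of estradiol and 2 at 0 h. All 24 libraries came from the same engineered line, and nothing in the labels ties the 2 libraries of a time to separate cultures, so p-values measure the spread between these libraries.

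Entry into mitosis is driven by the kinase CDK1 bound to cyclin B, which CDC25 phosphatases switch on and which Polo and Aurora kinases reinforce. The spindle checkpoint holds the cell in metaphase until every kinetochore is attached, after which CDC20 and the ubiquitin ligase APC/C destroy cyclin B and securin and free separase to cut cohesin. Transcripts of these genes peak late in each cycle: the MuvB complex, with B-MYB and FOXM1, activates them, and the same MuvB core with RB-like proteins and E2F4 (the DREAM complex) represses them in resting cells. Terminal granulocyte differentiation is known to end in cells that no longer divide. In RNA from a whole culture, fewer cycling cells and less RNA per cell cannot be told apart.

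Levels are given as CPM, the gene's count relative to the library size after scaling by edgeR's TMM factors. They are not divided by transcript length, so they compare libraries and not genes. A change is a log2 value ± SE, and a call means an adjusted p under 0.05 in edgeR's quasi-likelihood test with Benjamini-Hochberg adjustment over all genes tested. Gene counts ran from 36661334 to 49601719 per library, which was 82.7 to 85.7% of the reads, and the 2 libraries of a time correlated at 0.993 to 0.998 across genes. The lowest count of any member in any library was 17, for Plk4 at 120 h. Library sizes without TMM factors moved the median of all genes by -0.45 at 120 h and by -0.35 at 96 h, both against 0 h. Of the 40 genes, 13 share exonic bases with another annotated gene (Ccna2, Cdc20, Cdc25b, Cdc25c, Cdca8, Foxm1, Kif20a, Kif4, Nusap1, Plk1, Prc1, Top2a and Ube2c). The strand setting of the counting is not given in the sources used here, so their counts may lack reads of the shared bases or hold reads of that neighbour. Reads set aside as ambiguous were 1.08 to 1.25% per library.

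**Figure D1:**
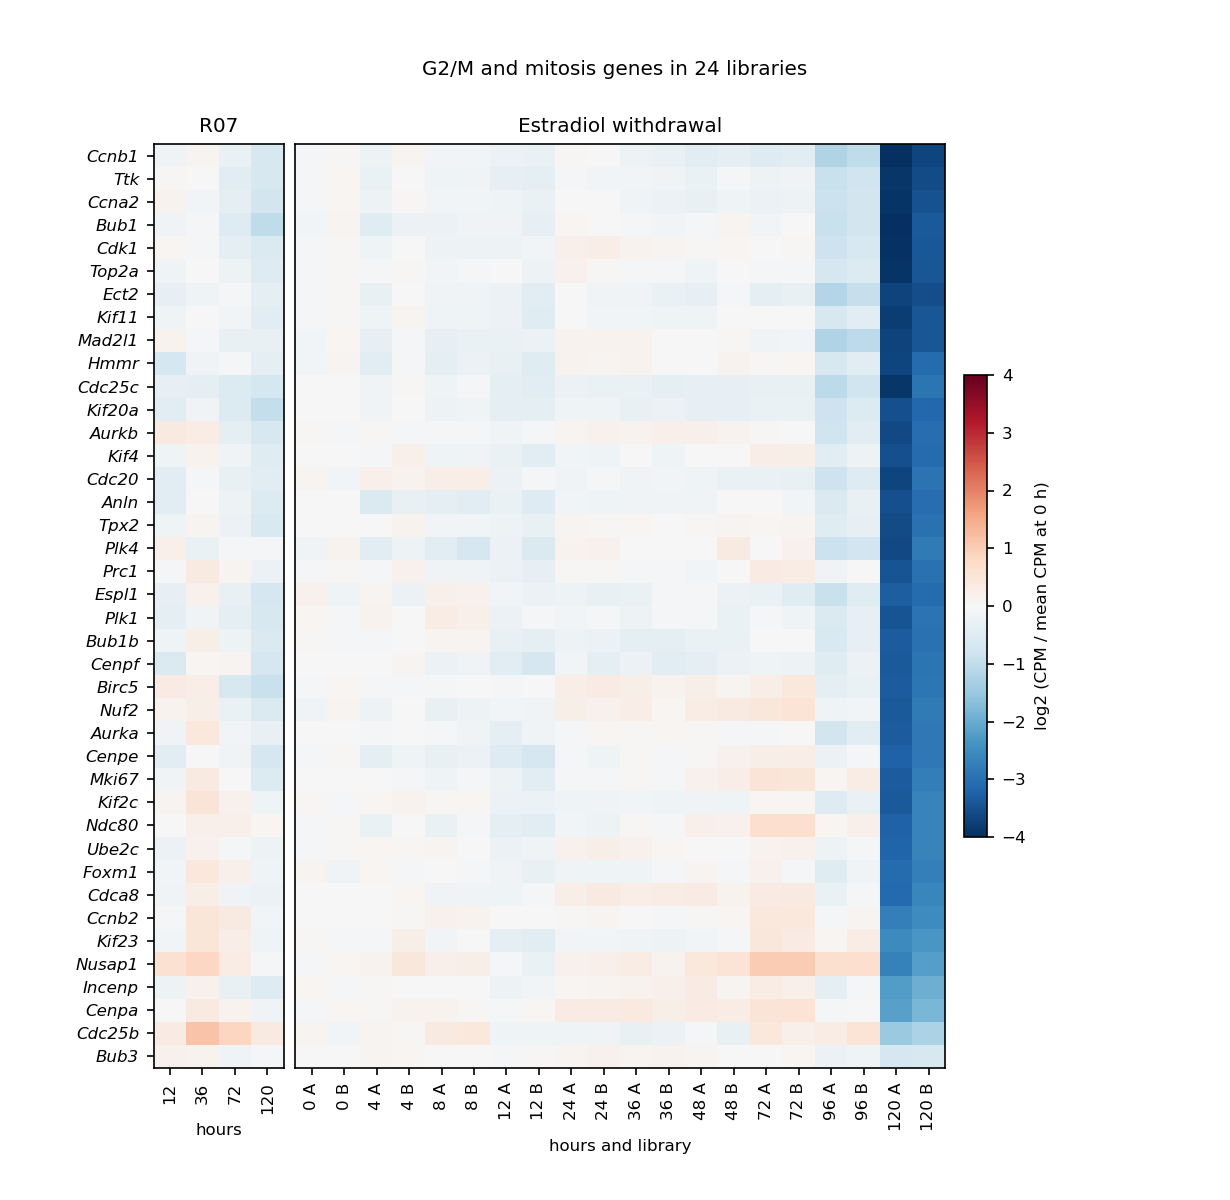
Level of each of the 40 genes in each of the 24 libraries, as log2 of the CPM over the mean CPM at 0 h, with R07 on the left and withdrawal on the right, and genes in order of their change at 120 h. Both withdrawal libraries at 120 h are the lowest of the withdrawal arm for 40 of 40 genes, least so for Bub3 and Cdc25b at the bottom, and the 2 libraries at 96 h are paler.

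After 120 h without estradiol, all 40 genes had fallen. Each was called lower than at 0 h, with a median log2 change of -3.21 and a range of -3.94 to -0.69, while of the 14615 genes tested 40.3% were called lower, 39.6% higher and 79.9% in either direction. The summed level of the 40 genes was 741 and 967 CPM at 120 h, against 6686 and 6840 CPM at 0 h. Both libraries at 120 h lay below all 18 other withdrawal libraries for 40 of 40 genes, a pattern that 18.2% of 14511 genes showed. The median gene held 11.1% of its 0 h level, and single genes held 6.64 to 63.0%. Library B exceeded library A for 40 of 40 genes at 120 h, and again for 40 of 40 at 96 h, while at the other 8 times it did so for 11 to 29 genes. The share of all genes with B above A was not computed here, so this is not read as particular to the list. The 40 calls held in 10 of 10 alternative settings.

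The 6 genes of the mitotic engine covered a range of -3.94 to -1.39. Ccnb1, which encodes cyclin B1, the mitotic partner of CDK1, had 15.2 and 21.7 CPM at 120 h, against 268 and 288 CPM at 0 h. Its log2 change of -3.94 ± 0.14 (adjusted p = 6.58e-16) was the lowest of the 40. Ccna2 (cyclin A2, which acts in S phase and early mitosis) had 25.6 and 35.1 CPM at 120 h, against 373 and 411 CPM at 0 h, a change of -3.72 ± 0.13. Cdk1 itself had 15.4 and 22.9 CPM at 120 h, against 231 and 246 CPM at 0 h, and thus fell 12.7-fold (-3.67 ± 0.13). Those 3 genes held 6.64, 7.73 and 8.01% of their 0 h level, with no overlap between the libraries of the 2 times. Ccnb2 (cyclin B2) fell 6.26-fold to 21.3 and 24.4 CPM at 120 h, against 139 and 143 CPM at 0 h. Cdc25c, a CDK1-activating phosphatase, fell 10.4-fold. Its relative Cdc25b, thought to start CDK1 activation, had 15.9 and 18.3 CPM at 120 h, against 47.5 and 41.0 CPM at 0 h. The Cdc25b change of -1.39 ± 0.12 (adjusted p = 5.94e-10) was smaller than that of all other members but Bub3.

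Foxm1, a transcription factor that binds promoters of many late cell cycle genes, had 11.2 and 14.0 CPM at 120 h, against 102 and 85.5 CPM at 0 h, a fall of 7.56-fold (-2.92 ± 0.14). Plk1, the Polo kinase of mitotic entry, had 11.3 and 15.9 CPM at 120 h, against 130.1 and 116 CPM at 0 h, a fall of 9.23-fold. Aurka, the spindle pole kinase, fell 8.57-fold, and Plk4, which starts centriole duplication, fell 9.33-fold, with 17 and 23 counts at 120 h, against 202 and 307 counts at 0 h. The 3 kinases thus lay close together, at -3.22 to -3.10.

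The chromosomal passenger complex corrects faulty attachments and later acts in cytokinesis. Its kinase gene Aurkb had 9.46 and 14.0 CPM at 120 h, against 118 and 112 CPM at 0 h, and fell 9.97-fold. Birc5 (survivin) and Cdca8 (borealin), which dock the complex on chromatin, fell 8.69-fold and 7.32-fold. Incenp, the scaffold, kept more of its level, with 45.8 and 55.8 CPM at 120 h, against 227 and 200.5 CPM at 0 h, a change of -2.10 ± 0.11. So the 4 subunits of 1 complex covered a range of -3.32 to -2.10.

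The spindle checkpoint held the widest range of all roles. Ttk, the kinase that starts checkpoint signalling at unattached kinetochores, had 3.98 and 4.96 CPM at 120 h, against 56.2 and 62.9 CPM at 0 h, a change of -3.76 ± 0.13 (adjusted p = 6.52e-16). Bub1, a checkpoint kinase, fell 12.8-fold, Mad2l1 (MAD2), which inhibits CDC20, fell 12.0-fold, and Bub1b (BUBR1) fell 8.96-fold. Bub3, the protein that carries BUB1 and BUBR1 to kinetochores, had 118 and 121 CPM at 120 h, against 193 and 187 CPM at 0 h. Its change of -0.69 ± 0.08 (adjusted p = 9.36e-08) was the smallest of the 40, and over the 10 alternatives it ran from -1.13 to -0.61. Bub3 thus held 63.0% of its 0 h level while its checkpoint partners held 7.51 to 11.3%.

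Among kinetochore genes, Cenpe, a motor that moves chromosomes to the metaphase plate, fell 8.28-fold and Cenpf fell 8.87-fold. Ndc80 and Nuf2, a pair of subunits of the complex that grips microtubules, fell 7.71-fold and 8.58-fold. Cenpa, the histone H3 variant that marks the centromere, had 33.5 and 42.4 CPM at 120 h, against 144 and 159 CPM at 0 h. Its fall of 4.07-fold (-2.02 ± 0.11) was smaller than that of the other 4 kinetochore genes. The anaphase genes stood at similar changes: Cdc20, the APC/C activator, fell 9.80-fold, Espl1 (separase) 9.29-fold and Ube2c, an APC/C-specific ubiquitin-conjugating enzyme, 7.69-fold.

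The spindle genes fell by 2.46 to 3.61 on the log2 scale. Kif11, the motor that pushes the poles apart, had 29.3 and 38.5 CPM at 120 h, against 398 and 419 CPM at 0 h, and fell 12.2-fold. Kif2c, a microtubule depolymerase, had 7.53 and 12.2 CPM at 120 h, against 80.2 and 74.96 CPM at 0 h, and fell 8.06-fold. Kif4, a chromosome-bound motor, fell 9.96-fold, Tpx2, which activates Aurora A, 9.72-fold, and Hmmr, a spindle pole protein, 10.4-fold. Nusap1, a microtubule-bundling protein, showed the smallest change of the group, -2.46 ± 0.14. Of the cytokinesis genes, Ect2, which activates RhoA at the cleavage furrow, fell 12.4-fold, Kif20a 10.0-fold, the scaffold gene Anln 9.76-fold and Prc1, which bundles the central spindle, 9.31-fold. Kif23, the motor of centralspindlin, fell 5.50-fold. Mki67, the gene of the Ki-67 antigen that coats mitotic chromosomes, had 56.9 and 83.9 CPM at 120 h, against 573 and 562 CPM at 0 h, a fall of 8.19-fold. Top2a, the topoisomerase that untangles sister chromatids, had 57.5 and 82.3 CPM at 120 h, against 853 and 893 CPM at 0 h, a fall of 12.7-fold.

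**Figure D2:**
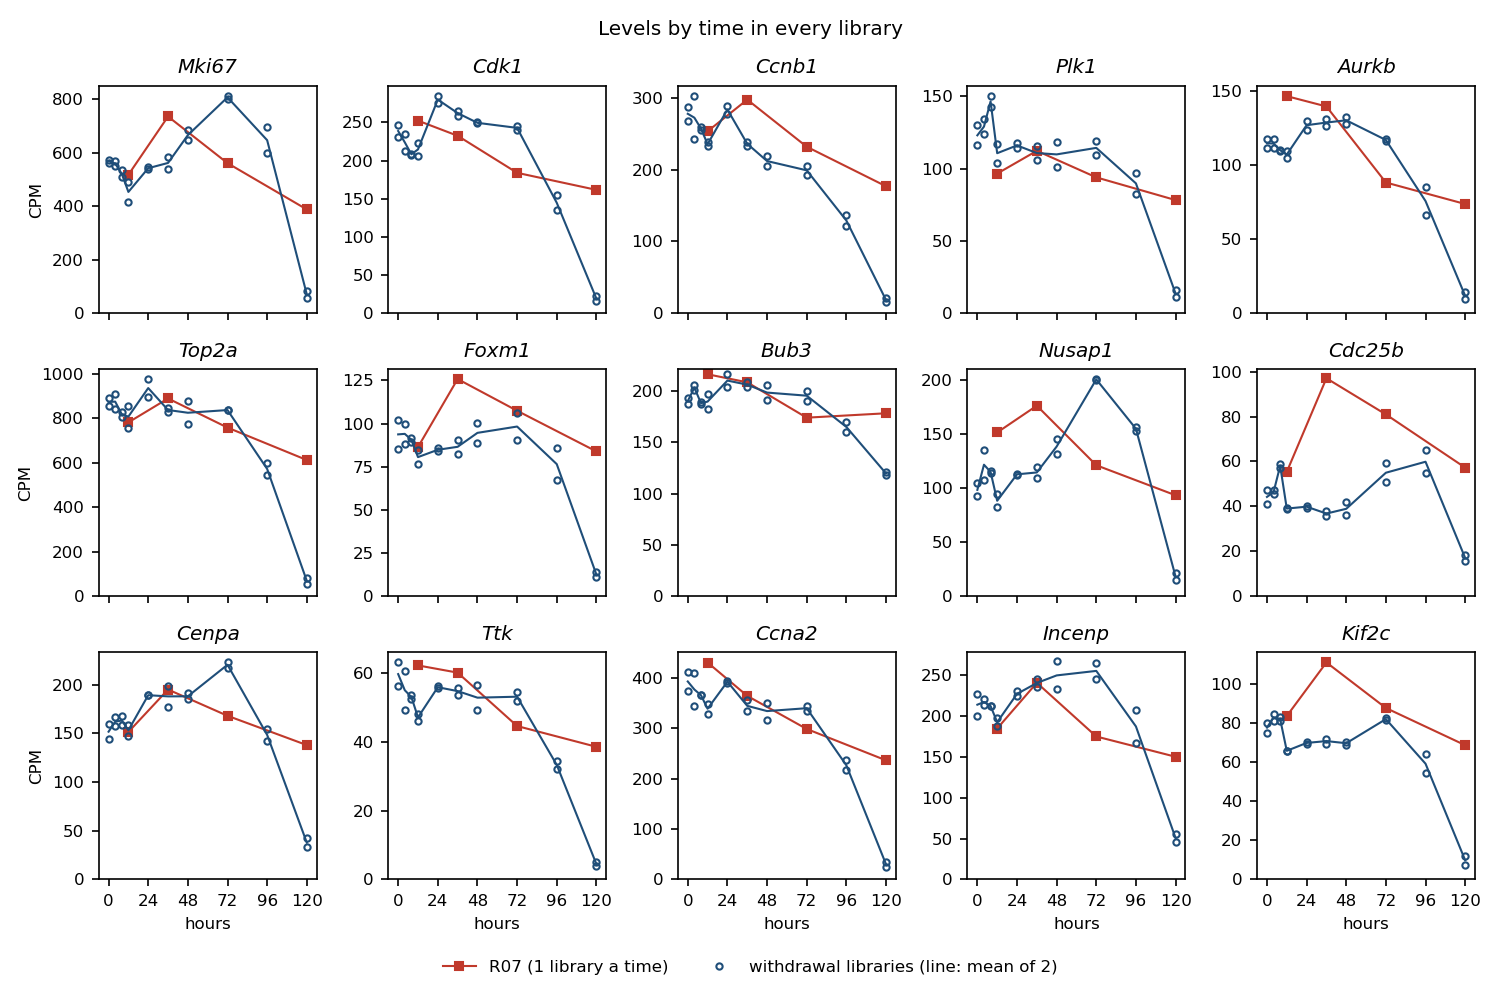
CPM by hours for 15 genes, with each R07 library as a red square and each withdrawal library as a blue circle, and a line through the mean of the 2 withdrawal libraries of a time; each panel starts at 0 and has its own scale. Most panels hold their level to 72 h and drop between 96 and 120 h in withdrawal, Nusap1 and Mki67 peak at 72 h, and Bub3 falls least.

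The promoters of these genes are shown because the list moved together at 120 h and because the DREAM and MuvB complexes recognise a known DNA element, the CHR. RefSeq promoters of build GRCm38.p6, from 250 bases before to 50 bases after the annotated start, matched 33 of the 40 genes by symbol, with 36 promoters in all. Those without an entry were Ccna2, Cdc25c, Foxm1, Aurkb, Incenp, Tpx2 and Kif20a. The CHR was searched as TTTGAA on both strands, and the box bound by the factor NF-Y, which often accompanies it, as CCAAT on both strands. Neither word contains the other. Each sequence below is the 150 bases before the RefSeq start, 5′ to 3′ on the strand of the gene, with both words in capitals.
Cdk1: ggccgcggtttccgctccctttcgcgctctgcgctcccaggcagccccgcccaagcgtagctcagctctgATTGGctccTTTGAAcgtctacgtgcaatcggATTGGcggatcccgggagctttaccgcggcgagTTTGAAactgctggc
Cdc20: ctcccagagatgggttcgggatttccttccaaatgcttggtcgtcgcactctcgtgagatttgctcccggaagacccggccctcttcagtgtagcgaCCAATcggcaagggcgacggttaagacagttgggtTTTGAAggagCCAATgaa
Ube2c: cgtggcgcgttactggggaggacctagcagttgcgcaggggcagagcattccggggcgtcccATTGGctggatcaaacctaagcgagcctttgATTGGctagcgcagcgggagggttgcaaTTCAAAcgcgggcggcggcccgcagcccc
Top2a: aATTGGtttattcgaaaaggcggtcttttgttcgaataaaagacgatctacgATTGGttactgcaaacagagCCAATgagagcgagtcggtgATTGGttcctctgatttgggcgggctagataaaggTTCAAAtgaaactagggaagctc
Kif11: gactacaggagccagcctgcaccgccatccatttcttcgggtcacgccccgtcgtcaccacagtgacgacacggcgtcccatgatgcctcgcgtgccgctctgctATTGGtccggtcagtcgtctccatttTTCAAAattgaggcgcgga
Bub3: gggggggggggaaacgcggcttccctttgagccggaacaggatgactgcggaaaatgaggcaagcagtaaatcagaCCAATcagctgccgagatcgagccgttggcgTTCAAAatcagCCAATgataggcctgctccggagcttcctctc
Nuf2: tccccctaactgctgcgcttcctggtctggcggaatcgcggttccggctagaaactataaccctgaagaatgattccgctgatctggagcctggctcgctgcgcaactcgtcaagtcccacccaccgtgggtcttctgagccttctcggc
The first 5 are examples picked by hand; they hold both words and belong to genes that fell 7.69-fold to 12.7-fold. In other members, such as Plk1 and Aurka, the CHR word lies only after the start, at bases 31 and 33, outside such a window. A relation between the words and the size of the fall was not tested. Bub3 is shown because it fell least, and Nuf2 because it holds neither word and still fell 8.58-fold.

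In genome coordinates the Cdk1 window is chr10:69352913-69353062 on the minus strand, the Cdc20 window chr4:118437344-118437493 on the minus strand and the Ube2c window chr2:164769779-164769928 on the plus strand. The Top2a window is chr11:99024190-99024339 on the minus strand and the Kif11 window chr19:37376232-37376381 on the plus strand. The Bub3 window is chr7:131560220-131560369 on the plus strand and the Nuf2 window chr1:169531465-169531614 on the minus strand. Cdk1 carries 2 CHR words, 71 and 15 bases before the start, and Bub3 carries it 43 bases before, between NF-Y words at 74 and 32 bases. The CHR word was present in 27 of the 36 member promoters (75%), against 17.9% of all 32851 promoters of this length, 12.7% of promoters of genes tested here and 13.7% of promoters of genes lower at 120 h. The NF-Y word was in 28 of 36 (77.8%), against 37.4% of all promoters. Both words were in 24 of 36 (66.7%), against 6.95% of all promoters. Neither word was found in the first listed promoter of Plk4, Birc5, Mad2l1, Nuf2 or Nusap1. A match describes letters in this window and is not a measured binding site.

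**Figure D3:**
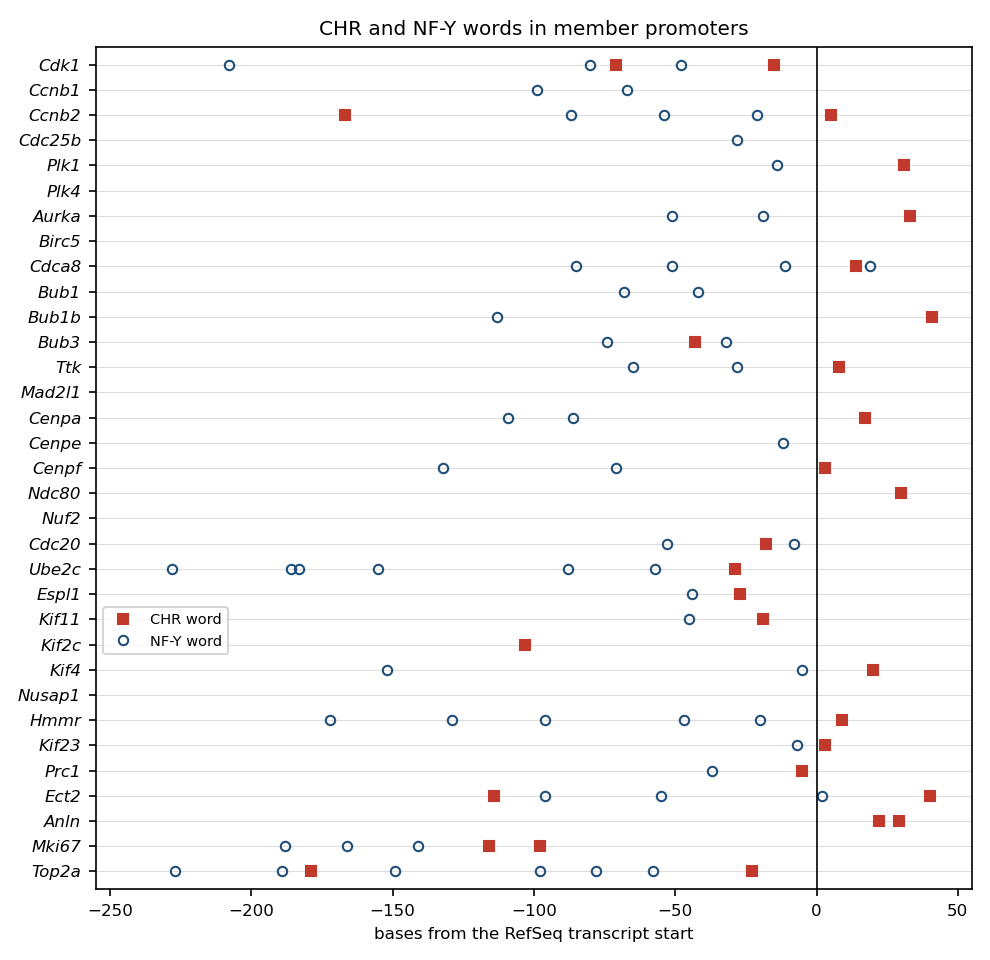
Position of each CHR word (red squares) and NF-Y word (blue circles) from 250 bases before to 50 bases after the RefSeq start, in the first listed promoter of 33 member genes. Most CHR words lie near the start, with NF-Y words before them, and 5 genes have neither.

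The fall was late. At 72 h the median gene held 104% of its 0 h level, at 96 h 74.3% and at 120 h 11.1%. Between 120 and 96 h all 40 genes were called lower (21.4% of all genes were), with a median of -2.75, and in the step before, 36 of 40 were called lower at 96 h than at 72 h (26.5% of all genes, and 53.7% in either direction), with a median of -0.51. The exceptions in that step were Espl1, Kif23, Cenpf and Cdc25b. Over the alternatives 24 (without 96 h library A) to 39 genes were called lower in the step to 96 h, and 40 in the step to 120 h in each of 10. Of the log2 fall at 120 h, the median gene had made 14.4% by 96 h. All comparisons with 0 h share the same 2 libraries.

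The values between these ends are given for 14 of the genes, chosen for their roles or for the size of their changes. Ccnb1 ran from 206 to 302 CPM over the 12 libraries at 4 to 48 h and had 192 and 206 CPM at 72 h and 122 and 137 CPM at 96 h. Ccna2 ran from 317 to 409 CPM over the 12 libraries at 4 to 48 h and had 334 and 344 CPM at 72 h and 217 and 236 CPM at 96 h. Cdk1 ran from 207 to 284 CPM over the 12 libraries at 4 to 48 h and had 240.4 and 245 CPM at 72 h and 135 and 155 CPM at 96 h. In all 3 engine genes both libraries at 96 h lay below every earlier library. The shares of all genes with this or the other library orders in this paragraph were not computed here. None of these orders is read as particular to the genes named. Plk1 ran from 101 to 150.3 CPM over the 12 libraries at 4 to 48 h and had 119 and 109 CPM at 72 h and 82.6 and 97.1 CPM at 96 h. Aurkb ran from 105 to 133 CPM over the 12 libraries at 4 to 48 h and had 118 and 116 CPM at 72 h and 66.2 and 85.2 CPM at 96 h. Ttk ran from 46.1 to 60.5 CPM over the 12 libraries at 4 to 48 h and had 51.7 and 54.3 CPM at 72 h and 32.1 and 34.4 CPM at 96 h. These 3 kinase genes also had both 96 h libraries below every earlier one. Top2a ran from 758 to 975 CPM over the 12 libraries at 4 to 48 h and had 836 and 838 CPM at 72 h and 544 and 600.5 CPM at 96 h. Foxm1 ran from 76.6 to 100.5 CPM over the 12 libraries at 4 to 48 h and had 106 and 90.3 CPM at 72 h and 67.2 and 86.0 CPM at 96 h. Mki67 ran from 415 to 684 CPM over the 12 libraries at 4 to 48 h and had 811 and 802 CPM at 72 h and 597 and 696 CPM at 96 h. Both Mki67 libraries at 96 h were above those of 0 h, while both Top2a libraries were below every earlier one. Kif2c ran from 65.6 to 84.6 CPM over the 12 libraries at 4 to 48 h and had 82.5 and 81.3 CPM at 72 h and 54.2 and 64.1 CPM at 96 h. Cenpa ran from 148 to 199 CPM over the 12 libraries at 4 to 48 h and had 217 and 224 CPM at 72 h and 143 and 154 CPM at 96 h. Incenp ran from 188 to 267 CPM over the 12 libraries at 4 to 48 h and had 265 and 245 CPM at 72 h and 167 and 208 CPM at 96 h. In these 3 genes both libraries at 72 h were above those of 0 h. Cdc25b ran from 35.7 to 59.0 CPM over the 12 libraries at 4 to 48 h and had 59.2 and 50.8 CPM at 72 h and 54.8 and 65.0 CPM at 96 h. Bub3 ran from 183 to 216 CPM over the 12 libraries at 4 to 48 h and had 190.3 and 200.3 CPM at 72 h and 160.0 and 169.8 CPM at 96 h. Both Bub3 libraries at 96 h lay below every earlier one, and both Cdc25b libraries lay above those of 0 h.

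The first 3 days brought small and mixed changes. At 4 h 1 of 40 genes was called lower (4.53% of all genes) and none higher (7.22%). It was Anln, at -0.44 ± 0.13 (adjusted p = 0.0281), and the call was lost without 0 h library A (adjusted p = 0.0883), 0 h library B (0.139) or 4 h library A (0.316). At 8 h Cdc25b was called higher (0.38 ± 0.11; 12.9% of all genes were) and Plk4, Mad2l1 and Anln lower (8.99% of all genes, and 21.9% in either direction). Without either 8 h library, or without 0 h library B, none of those 4 was called. Then, at 12 h, 12 genes were called lower and 0 higher, 30% of the list, against 6.81% of all genes lower and 9.2% higher. Cenpe changed most, at -0.60 ± 0.11 (adjusted p = 0.000368), with 75.7 and 68.5 CPM at 12 h, against 106 and 111 CPM at 0 h. The others were Cenpf, Kif23, Cdc25c, Ndc80, Anln, Kif20a, Kif11, Ttk, Kif4, Ect2 and Bub1b, so that cytokinesis (4 of 5) and kinetochore genes (3 of 5) had most calls. Cenpe was called in 10 of 10 alternatives; of the 12 calls, 1 was left when 12 h library B was dropped, 6 when library A of that time was, and 4 when either 0 h library was.

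From 24 to 48 h few genes differed from 0 h. At 24 h only Cenpa was called higher, at 0.31 ± 0.10 (13.5% of all genes were higher), and none lower (14.4%); leaving out either 24 h library or 0 h library A ended that call, and without 0 h library B 2 genes were higher. At 36 h Cenpa was higher (20.6% of all genes) and Bub1b, Cenpf and Kif20a lower (20.3%, and 40.9% in either direction). The Cenpa call at 36 h was lost without library A of 36 h or of 0 h, and Bub1b was the call that 10 of 10 alternatives kept; without 0 h library A or 36 h library B 1 gene was lower. At 48 h Nusap1 (0.49 ± 0.13), Nuf2 and Cenpa were higher (25.8% of all genes) and Ccnb1 (-0.39 ± 0.12), Kif20a, Cenpf and Bub1b lower (26.8%, and 52.6% in either direction). Of those 7, Nusap1 was called in 10 of 10 alternatives. The split became 1 higher and 0 lower when 48 h library A was left out, 1 and 2 for 0 h library A, and 3 and 1 for 0 h library B. The step to 48 h from 36 h had no member called in either direction, with 1 at an unadjusted p under 0.05, 0 in DESeq2 and 12.7% of all genes called (7.73% higher and 5.01% lower).

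At 72 h the list had calls in both directions, each at a smaller share than among all genes. By then 12 genes were called higher and 4 lower, against 34.9% of all genes higher and 34.7% lower; 40% of the list and 69.6% of all genes were called. Nusap1 had 200.4 and 201 CPM at 72 h, against 92.4 and 104 CPM at 0 h, a change of 1.01 ± 0.13 (adjusted p = 7.17e-07). Mki67 had 811 and 802 CPM at 72 h, against 573 and 562 CPM at 0 h (0.49 ± 0.13, adjusted p = 0.00192). Both libraries of each gene at 72 h lay above both at 0 h. Ndc80 (0.66), Cenpa (0.52), Nuf2 (0.49), Ccnb2 (0.41) and Kif23 (0.38) also rose, and these 7 genes were called higher in 10 of 10 alternatives. Cdca8, Birc5, Cdc25b, Prc1 and Cenpe were called higher with changes of 0.24 to 0.33 and lost the call in 2 to 6 of 10. Ccnb1 fell, with 192 and 206 CPM at 72 h, against 268 and 288 CPM at 0 h (-0.50 ± 0.12, adjusted p = 0.00108), in 10 of 10 alternatives. Espl1, Ect2 and Kif20a were called lower at -0.38 to -0.28 and lost the call in 2 or 3 of 10: without 0 h library A, 72 h library A or 72 h library B, 2 genes stayed lower. With library size alone the split was 7 higher and 8 lower. By roles, kinetochore genes had 4 of 5 higher and the checkpoint genes 0 of 5. The 2 B cyclins thus moved in opposite directions at the same time, 0.41 for Ccnb2 and -0.50 for Ccnb1. The highest mean of the time course fell at 72 h for 16 of the 40 genes, and the share of all genes was not computed here. From 48 to 72 h 7 genes rose and 0 fell (22.2 and 21.8% of all genes, 44.0% together), and 5 of the 7 were called in 10 of 10 alternatives.

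By 96 h the decline had begun, and the genes differed in how far it had gone. Compared with 0 h, 27 genes were called lower and 2 higher (38.6 and 38.7% of all genes, 77.4% together). Mad2l1 had 67.2 and 75.1 CPM at 96 h, against 146 and 166 CPM at 0 h (-1.15 ± 0.11), and Ccnb1 had 122 and 137 CPM at 96 h (-1.12 ± 0.12). Ect2 stood at -1.06 ± 0.12. Those 3 genes held 45.7, 46.5 and 48.6% of their 0 h level. Cdk1 had 135 and 155 CPM (-0.74 ± 0.12), Top2a 544 and 600.5 CPM, Aurkb 66.2 and 85.2 CPM and Plk1 82.6 and 97.1 CPM at 96 h, and all 4 were called lower. Nusap1, at 153 and 157 CPM, and Cdc25b, at 54.8 and 65.0 CPM, were called higher (0.64 ± 0.13 and 0.42 ± 0.11). Both calls ended with library size alone (adjusted p = 0.0636 for Nusap1 and 0.622 for Cdc25b), under which 35 genes were lower and 0 higher. Mki67 at 96 h had 597 and 696 CPM and was not called (0.17 ± 0.13). Among roles, 5 of 5 checkpoint genes and 3 of 3 Polo and Aurora A kinases were lower, but 1 of 5 kinetochore genes. The 27 became 20 to 35 over the alternatives, and 20 genes were called lower in each of them; Foxm1 and Bub3 were lost in 5 and 4 of 10.

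Of 50 other G2/M genes at 120 h, 49 were called lower and 1 higher, with a median of -3.38, beside -3.21 for the members and -0.06 for all genes tested. Gtse1, a G2 regulator of p53, fell most of them (-4.86 ± 0.15), with 3.98 and 5.52 CPM at 120 h, against 145 and 124 CPM at 0 h, and Cenph, a kinetochore gene, fell by 4.56 on the log2 scale. Hjurp, the chaperone that deposits CENP-A, fell 2.00-fold, the smallest fall of that list. Pttg1, the gene of securin, moved the other way, with 42.4 and 38.8 CPM at 120 h, against 12.8 and 13.5 CPM at 0 h, a rise of 1.60 ± 0.15 (adjusted p = 3.98e-09) that stood at 1.15 with library size alone. It had 30.5 and 19.0 CPM at 96 h and 13.7 and 14.0 CPM at 72 h. Securin inhibits separase, whose gene Espl1 had 7.44 and 8.69 CPM at 120 h, against 82.5 and 64.9 CPM at 0 h. Their transcripts therefore ran in opposite directions.

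The S phase list, 32 genes of DNA replication, had 31 called lower at 120 h, with a median of -3.59. Ung, a uracil-DNA glycosylase, and Pole, a DNA polymerase subunit, were lowest (-4.94 and -4.62), while Gins4 stood at -0.85. At 96 h the S phase median was -1.33, beside -0.45 for the members and -0.51 for the other G2/M genes. By then 29 of 32 S phase genes were lower (90.6%), beside 27 of 40 members (67.5%). The share of the 120 h log2 fall already made at 96 h had a median of 38.6% in the S phase list and 14.4% in the members; this difference was not tested. Of the 15 APC/C subunits and activators in the list, 9 were lower and 3 higher at 120 h, with a median of -0.65; Cdc23 (-1.71) and Cdc27 (-1.57) were lowest, and with library size alone 12 were lower and 0 higher, so that the rises of Anapc2 (0.52) and Anapc11 (0.39) became 0.07 and -0.06 and were not called. Of 19 genes of MuvB, the E2F family and the RB family, 15 were lower and 4 higher, with a median of -1.50. Mybl2 (B-MYB) had the lowest value (-5.09 ± 0.18), with 2.57 and 3.69 CPM at 120 h, against 113 and 95.1 CPM at 0 h, and the repressor gene E2f7 stood at -3.17. E2f2 had 89.3 and 74.4 CPM at 120 h, against 14.8 and 13.4 CPM at 0 h (2.52 ± 0.15), and Rb1, the retinoblastoma gene, 168 and 142 CPM at 120 h, against 46.5 and 53.9 CPM at 0 h (1.60 ± 0.13). Both rises held with library size alone (2.07 and 1.16), and those of Rbl2 (0.34) and Lin37 (0.30) turned to -0.11 and -0.15 and were not called.

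The same words in promoters were present at different shares in these lists. TTTGAA was in 55.1% of promoters of the other G2/M genes, 35% of those of the MuvB, E2F and RB genes, 13.8% of S phase and 11.8% of APC/C promoters, beside 75% for the members. The median changes at 120 h beside these shares were -3.38, -1.50, -3.59, -0.65 and -3.21.

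**Figure D4:**
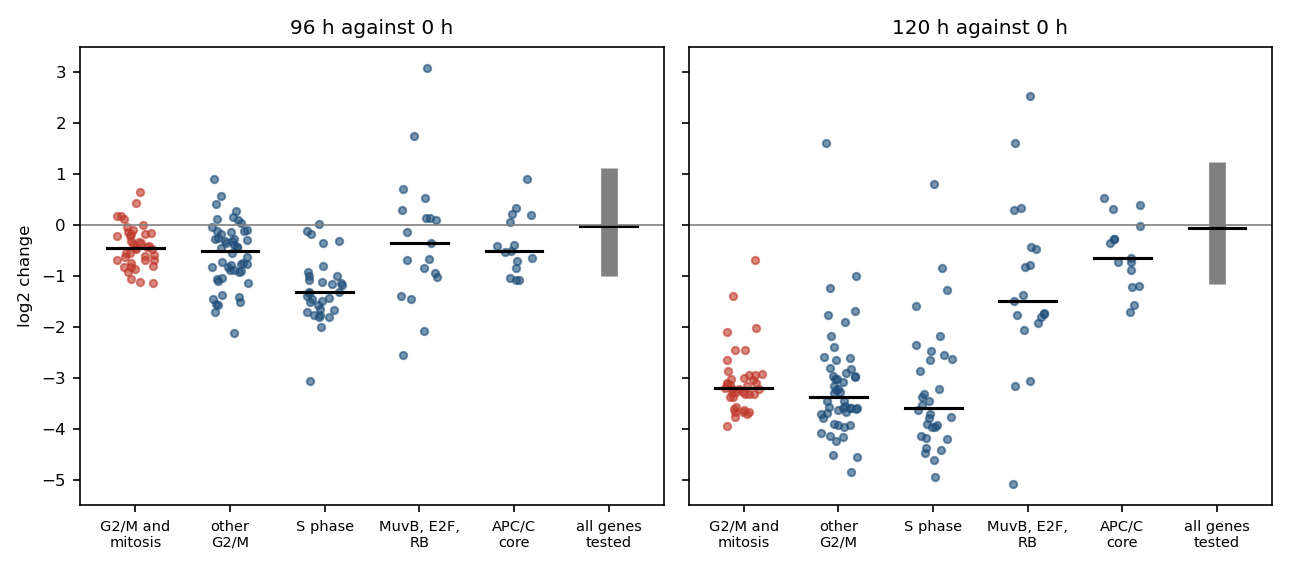
Log2 change at 96 h (left) and 120 h (right) against 0 h, with a point for each gene of 5 lists and a bar at each list's median; the grey column spans the middle 50% of all genes tested. At 96 h the S phase list lies lowest, and at 120 h the members, the other G2/M genes and the S phase genes lie together below -3 in the median.

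Markers of myeloid maturation moved over the same hours. The 12 neutrophil markers summed to 22982 to 31297 CPM at 120 h, 29287 to 37173 CPM at 96 h and 3573 to 5301 CPM at 72 h, against 24.9 to 26.5 CPM at 0 h, and 12 of 12 were called higher at 120 h, with Ly6g at 0 in the 0 h libraries. The 12 monocyte and macrophage markers summed to 7178 to 7464 CPM at 120 h, against 1440 to 1512 CPM at 0 h, with 10 of 11 tested called higher, 1 lower and Marco at 0. The 8 eosinophil markers summed to 175 to 197 CPM at 120 h and 1832 to 2037 CPM at 72 h, against 34.0 to 35.3 CPM at 0 h, with 8 of 8 higher at 120 h. The 6 progenitor markers summed to 119.9 to 129 CPM at 120 h, against 5000.2 to 5021 CPM at 0 h, and 6 of 6 were lower. The 8 B cell markers summed to 83.7 to 90.05 CPM at 120 h, against 404 to 422 CPM at 0 h (5 of 7 tested lower, 1 higher), with Ms4a1 at 0 at 0 h. T cell and erythroid markers summed to at most 2.13 CPM in these 2 groups, and Cd3e, Cd8a and Cd8b1 were at 0 in both. The part of these marker changes in the results above was not tested.

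R07 was compared with withdrawal to ask how the same genes behaved under another treatment over the same hours. At 120 h of R07 the list stood well above its withdrawal level. All 40 genes were higher in the R07 library than in both withdrawal libraries of 120 h (50.3% of 14511 genes were), by a median of 6.25-fold, and 39 were at least 2-fold higher (26.7% of genes). With 1 R07 library at each time, a difference at one time has no test. Ccnb1 had 177 CPM in R07 at 120 h, against 15.2 and 21.7 CPM in withdrawal, a ratio of 9.59. Mki67 had 388 CPM in R07 at 120 h, against 56.9 and 83.9 CPM in withdrawal, and Cdk1 had 162 CPM, against 15.4 and 22.9 CPM. In all 3 genes the R07 library lay above both withdrawal libraries. Top2a (612 CPM), Plk1 (78.3 CPM), Aurkb (73.7 CPM) and Foxm1 (83.9 CPM) in R07 at 120 h were 8.77, 5.76, 6.27 and 6.65 times the withdrawal mean. The ratio was highest for Mad2l1 (9.68) and lowest for Bub3 (1.49), Incenp (2.96), Cdc25b (3.35) and Cenpa (3.64). Incenp had 150.2 CPM in R07, against 45.8 and 55.8 CPM in withdrawal, and Cenpa 138 CPM in R07, against 33.5 and 42.4 CPM.

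At the earlier times the arms lay close together. The median ratio of R07 to withdrawal was 1.09 at 12 h (0.808 to 1.71), 1.07 at 36 h (0.830 to 2.63) and 0.870 at 72 h (0.504 to 1.47). At least 2-fold higher were 0, 1 and 0 of 40 genes at those times (5.31, 14.6 and 15.0% of all genes), and 0 at least 2-fold lower (3.54, 6.06 and 11.8%). At 72 h 33 of 40 genes were lower in R07 than in both withdrawal libraries (44.4% of all genes). Nusap1 had 121 CPM in R07 at 72 h, against 200.4 and 201 CPM in withdrawal, and Mki67 561 CPM, against 811 and 802 CPM. These 2 genes were among those highest at 72 h of withdrawal.

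**Figure D5:**
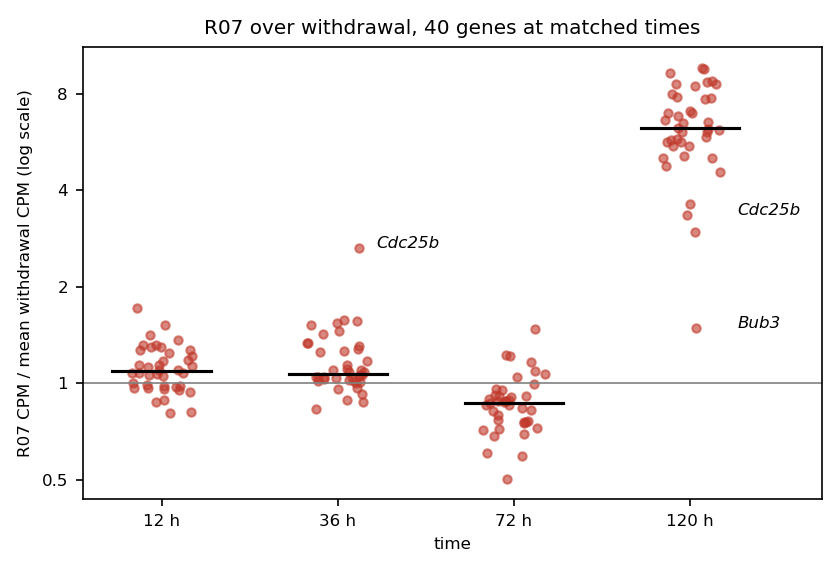
Ratio of the R07 library to the mean of the 2 withdrawal libraries for each of the 40 genes at 12, 36, 72 and 120 h, on a log scale, with a bar at the median. The medians are 1.09, 1.07, 0.870 and 6.25; Cdc25b stands above the rest at 36 h and Bub3 below the rest at 120 h.

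Over the R07 course itself the list was highest at 36 h for 27 of 40 genes and lowest at 120 h for 32. Each R07 time is 1 library, and the shares of all genes with these patterns were not computed here. The summed level of the list was 6288, 7465, 6106 and 4858 CPM at 12, 36, 72 and 120 h. Cdc25b had 55.4, 97.0, 81.0 and 57.3 CPM at those times, and Kif2c 83.5, 111, 87.6 and 68.6 CPM. Ttk had 62.1, 59.99, 44.5 and 38.5 CPM, so that it declined at each step while Cdc25b and Kif2c were highest at 36 h. Ccna2 declined likewise, with 429.8, 364, 298 and 236 CPM. At 120 h of R07 the median gene held 70.8% of its 0 h level (49.6 to 129%), and 36 of 40 lay below both 0 h libraries (39.9% of all genes). Tested as 1 arm against 0 h, R07 had 0 of 40 genes called and 0 of 13704 overall in edgeR's quasi-likelihood test with Benjamini-Hochberg adjustment, with changes between R07 times entering the spread. At an unadjusted p under 0.05 there were 2868 genes, 4 of them members, and DESeq2 called 1313 genes and 0 members. Without the 12 h R07 library edgeR called 2256 genes and 0 members.

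Ccnb1 had 254, 298, 232 and 177 CPM at the 4 R07 times. Cdk1 had 252, 233, 184 and 162 CPM at the 4 R07 times. Mki67 had 517, 735, 561 and 388 CPM at the 4 R07 times. Ccnb1 and Mki67 were highest at 36 h and Cdk1 at 12 h. Plk1 had 96.6, 112, 94.0 and 78.3 CPM at the 4 R07 times. Aurkb had 147, 139.6, 88.2 and 73.7 CPM at the 4 R07 times. Top2a had 782, 889, 758 and 612 CPM at the 4 R07 times. All 3 were lowest at 120 h. Foxm1 had 86.4, 126, 107 and 83.9 CPM at the 4 R07 times. Bub3 had 216, 208, 174 and 178 CPM at the 4 R07 times. Bub3 was highest at 12 h and lowest at 72 h. Cenpa had 152, 195, 168 and 138 CPM at the 4 R07 times. Incenp had 185, 241, 175 and 150.2 CPM at the 4 R07 times. Both were highest at 36 h and lowest at 120 h.

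Across the 4 matched times, 1 gene differed between the arms as a whole. Cdc25b was higher in R07 by 1.09 ± 0.20 (adjusted p = 0.00772), with a higher value in R07 than in both withdrawal libraries at 4 of 4 times: 55.4 against 38.9 and 39.2 CPM at 12 h, 97.0 against 35.7 and 38.0 CPM at 36 h, 81.0 against 59.2 and 50.8 CPM at 72 h and 57.3 against 15.9 and 18.3 CPM at 120 h. The call held in 17 of 17 alternatives, with log2 differences of 0.81 to 1.32, and also without the 120 h time. The other 39 genes were not called higher and 0 were lower (10.5 and 6.52% of 14511 genes were), although their differences had a median of 0.81 over the list. Ccnb1 (1.10 ± 0.49, adjusted p = 0.148) and Kif2c (1.06 ± 0.39, 0.0928) had differences as large as that of Cdc25b with wider errors, since a difference that changes with time enters the error of this test; DESeq2 called Kif2c and Kif23 as well, and leaving out the 72 h R07 library gave 2 members, Cdc25b and Nusap1. Bub3 (0.16 ± 0.12), Incenp (0.30 ± 0.29) and Cenpa (0.45 ± 0.32) had the smallest.

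The change of the difference with time was tested directly. The log2 difference between R07 and withdrawal rose with hours for 35 of 40 genes and fell for 0 (25.6 and 23.1% of all genes), with a median slope of 0.55 per 24 h. Hmmr had the steepest slope (0.72 ± 0.14 per 24 h, adjusted p = 0.00314), and Bub3 the least steep (0.08 ± 0.06, not called). The genes not called were Bub3, Cdc25b, Nusap1, Birc5 and Nuf2. All 35 calls rest on 120 h. Without that time, an alternative chosen after seeing the data, 0 genes had a rising and 6 a falling difference. The same counts came without the single R07 library of 120 h. Counts over all genes for such fits are given with the alternatives at the end, and the 6 falls are not read as a result about the list. Fewer than 35 genes were called without 120 h withdrawal library A, and likewise without library B. For all genes, only a range over the fits that leave out 1 library is given at the end. The drop is therefore not read as particular to the list. The R07 marker sums that follow are ranges over its 4 libraries, from 12 to 120 h. In R07 the 12 neutrophil markers summed to 38.3 to 197 CPM, against 22982 to 31297 CPM in withdrawal at 120 h. The 6 progenitor markers summed to 5359 to 5758 CPM in R07, against 119.9 to 129 CPM in withdrawal at 120 h. Monocyte and macrophage markers summed to 1386 to 2524 CPM in R07, against 7178 to 7464 CPM in withdrawal at 120 h. The 8 eosinophil markers summed to 91.8 to 260 CPM in R07, against 175 to 197 CPM at 120 h and 1832 to 2037 CPM at 72 h of withdrawal. Over the matched times 6 of 8 were called lower in R07 and 0 higher (6.52 and 10.5% of all genes). The 8 B cell markers summed to 276 to 519 CPM in R07, against 83.7 to 90.05 CPM in withdrawal at 120 h. Over the matched times 5 of 7 tested were called higher in R07 and 0 lower. At 0 h the eosinophil markers summed to 34.0 to 35.3 CPM. The part of these differences in the R07 results was not tested.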

How the data were processed

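Whole-culture RNA of 24 libraries was read as 101-base paired ends from stranded, oligo-dT-selected libraries, per the labels' protocols. STAR 2.4.2a, Picard and the build mm10 are named in the submitters' processing notes, and the counter and its strand setting are not given in the sources used here. The deposited values are raw counts per gene by the authors, in 45323 lines, of which 4 name no gene and were left out, so that 82.7 to 85.7% of reads remained. Symbols came from GENCODE vM21 by identifier. The labels give replicate numbers, while the columns of the table carry letters, so libraries are named by letter. The letters were not used to pair samples in the reported fits.

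Counts were scaled by TMM, filtered with filterByExpr and tested with edgeR 4.0.16 (R 4.3.3, limma 3.58.1), with Benjamini-Hochberg adjustment over all genes and a call at an adjusted p under 0.05. Withdrawal was fitted on 20 libraries with time as a factor, R07 against withdrawal on 12 libraries with time plus arm, or arm by hours for the slope per 24 h, and R07 against 0 h on 6. Library B and A of each time entered as separate samples. The scripts were tested on simulated data in which a small part of the genes changed, in both directions, and slopes were linear in hours. That check does not cover data in which most genes change or in which a difference arises at a single time. Alternatives were RLE factors, library size only, no filter, DESeq2 1.42.0, a block on the letter, only the libraries of the 2 times, and leaving out each library. Given library by library were 8 genes picked by role, the 3 lowest and 3 highest at 120 h, and the 3 largest and 3 smallest differences between R07 and withdrawal. From each other list the 2 lowest and 2 highest genes at 120 h were named, among those whose mean log2 CPM reached 3, apart from items that are not reported here, and other names were chosen after their values were seen. The members and lists were chosen with earlier results of these data known. Promoter sequences are from RefSeq.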

Additional observations from a re-analysis of the deposited data

Results flagged for a closer look

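The difference between R07 and withdrawal changed with time by a direct test of that change, edgeR's quasi-likelihood test of the arm by hours with Benjamini-Hochberg adjustment. It rose for 35 of 40 genes, with Hmmr steepest at 0.72 ± 0.14 on the log2 scale per 24 h (adjusted p = 0.00314). At 120 h 40 of 40 genes were higher in R07 than in both withdrawal libraries (50.3% of all genes were), and at 72 h 6 of 40 were (45.2% of all genes). Without the 120 h time, which was left out after seeing the data, 0 genes rose and 6 fell, and the adjusted p for Hmmr was 0.632. The count over all genes in that fit is given in the next section, and the 6 falls are not read as a result about the list. No group had enough libraries for a check of single libraries that stand apart.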

How the results depend on the processing

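The 40 calls at 120 h against 0 h and the 40 against 96 h held in each of 10 alternatives. No member's called change turned its sign in any of 6314 values, of which 173 lost and 87 gained a call. For the slope over hours, those values cover Hmmr and Bub3 only. The slopes of the other members are outside that statement, and without the 120 h time 0 members were called rising and 6 falling. The lowest member slope in the reported fit was 0.08 per 24 h, so those 6 slopes had turned their sign. Of 522 counts under alternatives, 436 were within 1.5 times the reported count. With library size only, the counts became 0 lower at 8 h (reported 3), 0 higher at 24 h (1), 5 lower and 0 higher at 36 h (3 and 1), 1 higher at 48 h (3), 8 lower and 7 higher at 72 h (4 and 12) and 0 higher at 96 h (2). With RLE factors 5 were lower at 36 h. Without the filter 2 were lower at 4 h (1), 3 higher at 24 h, 2 higher at 36 h, and 31 genes overall differed between R07 and 0 h (0). DESeq2 gave 2 lower at 4 h, 2 higher at 24 h, 5 lower at 36 h, 3 higher in R07 over matched times (1) with 4122 genes overall (2469), and 1313 genes for R07 against 0 h. Only the 4 libraries of the 2 times gave 8 lower and 3 higher at 8 h (3 and 1), 2 lower and 3 higher at 24 h, 5 lower and 2 higher at 36 h, and 1 higher at 48 h against 36 h (0). The replicate block on the column letter gave 2 higher at 24 h and left other counts within 1.5 times. The difference between libraries A and B correlated over 0.1 in 18 of 45 pairs of times, from -0.52 to 0.59. Whether libraries of the same letter belong together is not given by the labels and was not tested. Without the 120 h time, added after seeing the data, the slope had 6 lower, 0 higher and 3301 genes overall (0, 35 and 7071). The cause of these shifts was not tested. Leaving out 1 library gave these ranges: 0 to 1 lower at 4 h with 815 to 1647 genes overall; 0 to 2 lower and 0 to 1 higher at 8 h with 1494 to 2812; 1 to 6 lower at 12 h with 1445 to 2042; 0 to 2 higher at 24 h with 2681 to 3508. At 36 h 1 to 2 were lower and 0 to 1 higher, at 48 h 0 to 3 lower and 1 to 3 higher, and at 72 h 2 to 3 lower, and the step from 36 to 48 h had 557 to 1371 genes. For R07, matched times had 1 to 2 members higher and 1025 to 3988 genes, the slope 0 to 39 higher, 0 to 6 lower and 3856 to 8473 genes, and R07 against 0 h 0 to 2256 genes. Plk4, with 17 and 23 counts at 120 h, is the member with the least depth.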
